A study of Homo sapiens with 8 samples.

Results

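The genes described here are 8 transcription factor genes of the intestinal lineage, CDX1, CDX2, HNF4A, KLF4, KLF5, GATA6, ELF3 and ATOH1, listed by name for their known roles in the gut. They are 8 of the 20037 protein-coding genes with a RefSeq position. A window was drawn around each gene, from 10 kb before its RefSeq span to 10 kb after it, and every peak of every deposited list that overlapped the window by at least 1 bp was taken. The lists come from CUT&RUN, in which an antibody guides a nuclease to its target on chromatin and the released DNA is sequenced, in HCT-116 colorectal carcinoma cells. There were 8 libraries. BRG1, the SWI/SNF ATPase encoded by SMARCA4, was profiled in SETD3 knockout cells KO1 and KO2 and in control cells, and so was Flag-tagged wild type actin. Each antibody arm also had 1 IgG library of control cells, which shows background cutting. The title of the IgG library in the Flag arm carries the word Empty. SETD3 methylates a histidine of actin. Every cell group is the same line, and the peaks give no measure of SETD3 itself. The labels do not state whether KO1 and KO2 are clones or cultures, nor how the Flag-actin construct was introduced or expressed.

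CDX1 and CDX2 are homeobox factors that set and hold intestinal identity, and GATA6 and HNF4A act with them in enterocytes. KLF5 is known for crypt proliferation and KLF4 for cell cycle exit and goblet cells. ELF3 is an epithelial ETS factor of differentiation, and ATOH1 commits progenitors to the secretory lineage. SWI/SNF complexes move nucleosomes at promoters and enhancers, so factor genes of this kind are places where BRG1 can be looked for.

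No antibody library was repeated in control cells, so KO and control were not compared by a test, and the values below are counts and ranks of individual libraries. A peak is placed by its percentile, the share of its own list with the same or a lower total signal. It places a peak within that list only, and percentiles from lists of different length show no change between libraries. The lists held 23784 BRG1 peaks in KO1, 32038 in KO2 and 53270 in control, with 24755 in the IgG library of that arm. For Flag-actin they held 27249 in KO1, 35892 in KO2 and 38902 in control, with 20303 in IgG. The lists thus differ in length, and the part of length in any count was not tested. The main counts are therefore set beside the same share over all genes or over the whole list. The names of the IgG lists also carry a threshold of 0.005, and those of the antibody lists 0.01. IgG and antibody counts therefore stand at unlike thresholds, and so does the overlap that sorts peaks as outside IgG. Whether a peak outside IgG is background was not tested.

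At 4 of the 7 genes with a promoter sequence in the RefSeq table, a BRG1 peak of control cells lay across an annotated transcription start. These 4 promoters are printed because they let the BRG1 lists of KO and control cells be compared over the same bases. Each sequence (RefSeq, GRCh38.p14) runs 5′ to 3′ along the gene from 250 bases before the start to 50 after its first base, and capitals mark the bases inside the BRG1 peak of control cells. ELF3 lies at chr1:202010337-202010636 on the plus strand, CDX2 at chr13:27969266-27969565 on the minus strand, GATA6 at chr18:22169339-22169638 on the plus strand, and the second listed KLF5 start at chr13:73058755-73059054 on the plus strand.
ELF3: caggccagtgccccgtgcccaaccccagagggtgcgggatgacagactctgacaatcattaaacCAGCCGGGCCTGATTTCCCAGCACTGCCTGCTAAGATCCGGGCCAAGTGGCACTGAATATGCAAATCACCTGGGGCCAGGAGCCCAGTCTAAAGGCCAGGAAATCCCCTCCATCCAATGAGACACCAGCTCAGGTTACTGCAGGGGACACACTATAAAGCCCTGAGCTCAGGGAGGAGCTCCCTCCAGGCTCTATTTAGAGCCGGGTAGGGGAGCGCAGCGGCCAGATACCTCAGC
CDX2: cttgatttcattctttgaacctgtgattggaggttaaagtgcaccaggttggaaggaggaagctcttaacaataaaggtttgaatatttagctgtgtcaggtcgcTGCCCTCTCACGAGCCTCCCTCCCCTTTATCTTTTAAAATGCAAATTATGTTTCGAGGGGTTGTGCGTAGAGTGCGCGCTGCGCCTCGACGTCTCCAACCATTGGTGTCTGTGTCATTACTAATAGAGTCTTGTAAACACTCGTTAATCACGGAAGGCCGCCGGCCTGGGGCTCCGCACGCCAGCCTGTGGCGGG
GATA6: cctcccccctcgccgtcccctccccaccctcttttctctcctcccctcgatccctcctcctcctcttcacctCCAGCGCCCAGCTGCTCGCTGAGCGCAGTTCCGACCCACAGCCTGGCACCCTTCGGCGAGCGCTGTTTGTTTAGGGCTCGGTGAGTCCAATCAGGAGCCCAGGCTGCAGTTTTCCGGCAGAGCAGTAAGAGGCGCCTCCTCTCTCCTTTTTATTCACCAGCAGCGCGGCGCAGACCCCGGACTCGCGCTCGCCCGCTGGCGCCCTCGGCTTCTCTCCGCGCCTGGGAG
KLF5: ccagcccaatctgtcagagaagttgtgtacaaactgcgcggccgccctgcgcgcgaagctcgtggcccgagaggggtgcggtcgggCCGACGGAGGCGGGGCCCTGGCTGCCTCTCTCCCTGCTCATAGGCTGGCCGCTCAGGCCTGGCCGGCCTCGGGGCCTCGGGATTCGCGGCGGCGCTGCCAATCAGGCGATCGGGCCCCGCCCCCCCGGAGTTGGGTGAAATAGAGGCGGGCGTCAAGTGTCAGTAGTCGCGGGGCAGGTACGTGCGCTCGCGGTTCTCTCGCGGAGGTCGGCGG

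The peak took up 236 of the 300 bases at ELF3, 195 at CDX2, 228 at GATA6 and 214 at KLF5, and in each it ran through the start and on past the end of the printed window. In the BRG1 KO1 list no peak lay over any of the 4. In the KO2 list a peak lay over ELF3 and KLF5, and none over CDX2 or GATA6. Over all 15843 protein-coding genes with a listed promoter, 3.42% had a BRG1 peak there in KO1, 9.68% in KO2 and 25.7% in control, against 0.631% in IgG. The counts for the lineage factors were 0 of 7, 2 of 7 and 4 of 7. A promoter peak in control and in neither KO was found at 17.5% of all genes and at CDX2 and GATA6 here. Nothing particular to the 7 genes can be read from counts of this size.

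The other 5 listed promoters, the upstream start of KLF5, both of HNF4A, and those of KLF4 and ATOH1, were free of BRG1 peaks in every BRG1 list. CDX1 has no entry in the promoter table. Short motifs were searched on both strands of the 9 listed promoters. The GATA motif GATAA occurred in 3 of them, CDX2 and both HNF4A promoters, against 22.7% of 35116 promoters in the table, and the CDX2 match lay inside the BRG1 peak. The GC box GGGCGG occurred in 4 of 9, against 45.0%, with 1 of the KLF5 matches inside the peak. CCACCC, a KLF motif, occurred in 4 of 9 against 34.3%, TGANTCA of AP-1 in 1 of 9 against 7.71%, GGAAGT of ETS factors in 1 of 9 against 22.8%, and TTTATG of CDX factors in 0 of 9 against 10.6%. These are matches of letters and say nothing about which factor was bound.

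BRG1 peaks lay within 10 kb of 4 of the 8 genes in KO1, 5 in KO2 and 6 in control. Over all genes the shares were 44.3%, 55.5% and 72.4%, and the IgG library of that arm had a peak at 42.6% of all genes and at 3 of the 8. Peaks that overlapped this IgG list made up 2 of the 4 peaks at the 8 genes in KO1, 3 of 9 in KO2 and 3 of 20 in control. Over the whole lists the overlapping shares were 70.5% in KO1, 58.7% in KO2 and 34.9% in control, in the same order. Outside IgG peaks, the genes with a BRG1 peak numbered 2 in KO1, 2 in KO2 and 5 in control, against 20.2%, 35.8% and 61.8% of all genes.

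The number of BRG1 peaks over the 8 windows was 4 in KO1 and 9 in KO2 (mean 6.5 ± 3.54, SD, n = 2), against 20 in control. KO over control was 0.2 for KO1 and 0.45 for KO2, while the lengths of the lists stood at 0.446 and 0.601 and all gene windows at 0.369 and 0.534. ELF3 held 10 of the 20 control peaks. Without it the ratios were 0.3 and 0.6, against the 0.369 and 0.534 of all gene windows. With the 3 lists held to the length of the shortest, the windows held 4 peaks in KO1, 8 in KO2 and 7 in control, so for KO2 the order turned round. Fewer BRG1 peaks in both KO lists than in control were found at 4 of the 8 genes (CDX2, HNF4A, GATA6 and ELF3) and at 48.3% of all genes. More in both were found at 0 of the 8 and 1.91% of all genes, although KLF5 had more in both with equal-length lists. The median gene among the 8 held 0.5 peaks in KO1, 1 in KO2 and 1.5 in control, against 0, 1 and 1 over all genes.

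**Figure D1:**
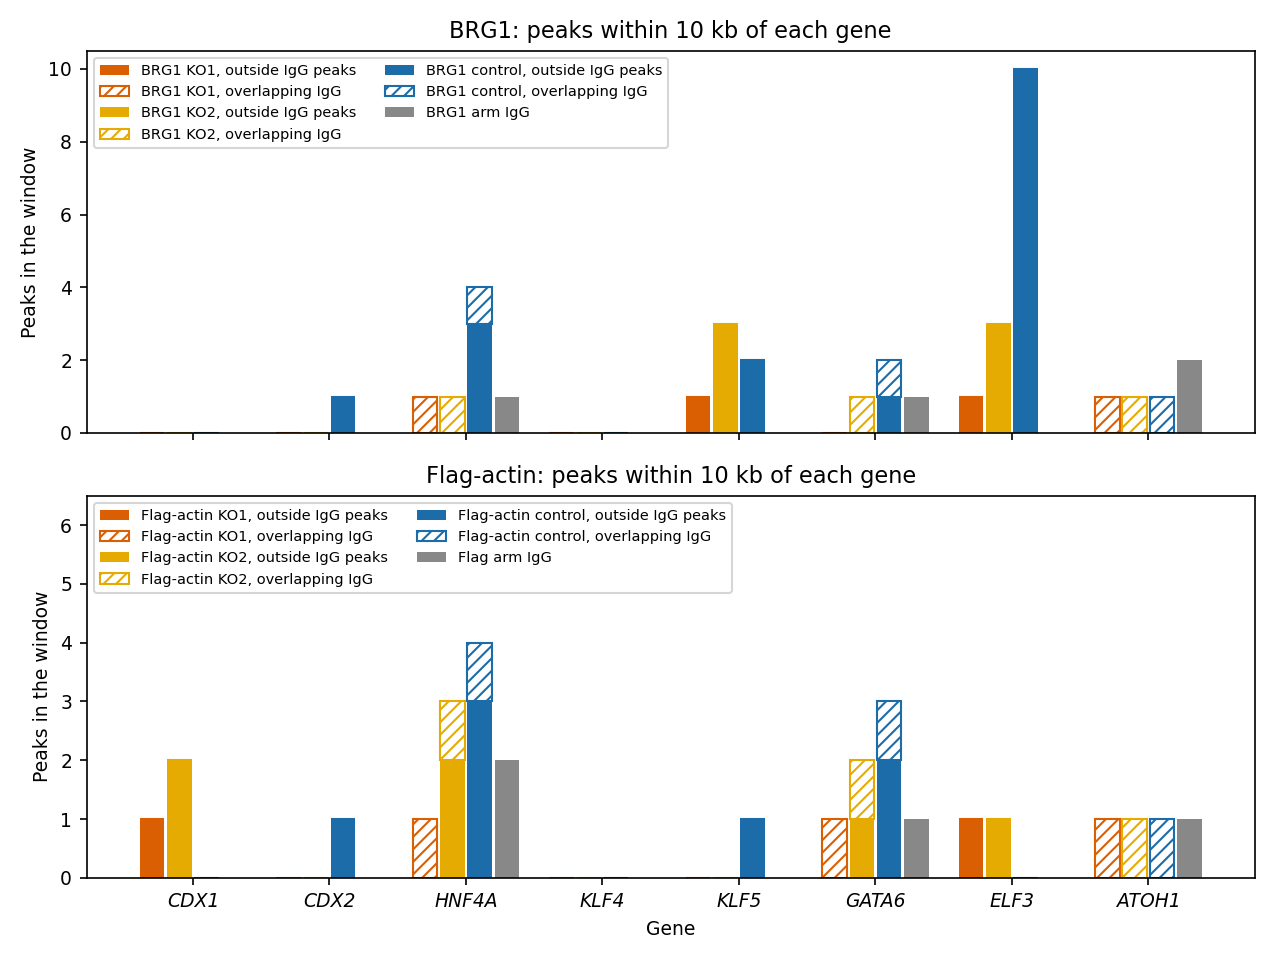
Number of peaks within 10 kb of each of the 8 genes (vertical axis, count of peaks) in KO1, KO2, control and IgG, for BRG1 above and Flag-actin below. Filled bars are peaks outside the IgG list of that antibody and hatched bars are peaks that overlap it, and each bar is 1 library without error. ELF3 stands out with 1 BRG1 peak in KO1 and 3 in KO2, against 10 in control, and KLF4 has none in any list.

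ELF3 (gene ID 1999, chromosome 1 from 202010587 to 202017183) was the densest of the 8 for BRG1 in control cells. Its window held 1 BRG1 peak in KO1, 3 in KO2 and 10 in control, and 0 in IgG. Only 2.8% of all genes held 10 or more BRG1 control peaks. Those 562 genes had a median window of 283 kb, against 26.6 kb for ELF3. Of the 562, 94.7% held fewer BRG1 peaks in both KO lists than in control. They were chosen by a high control count, which itself favours fewer peaks in KO, so this share tells little. The medians of all 562 were 4 in KO1, 6 in KO2 and 13 in control. A KO1 count no higher than that of ELF3 was found at 13.2% of them, and such a KO2 count at 20.6%. By peaks per 10 kb, ELF3 had 0.376 in KO1, 1.13 in KO2 and 3.76 in control. That density was matched or passed by 1649 of 20037 genes in KO1 (8.23%), 176 in KO2 (0.878%) and 17 in control (0.0848%), ELF3 included in each. None of the peaks at ELF3 overlapped either IgG list.

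The 3 KO2 peaks at ELF3 each overlapped a control peak, 1 of them only at its edge. One covered part of the promoter, from 202010341 to 202010520, and ended 66 bp before the start, where the control peak ran through it. Its maximum signal was 90.9, against 101 in control, on the deposited scale. In multiples of the smallest signal step of each list, these heights were 10 in KO2 and 23 in control. The other KO2 peaks lay 637 and 1767 bp past the end of the gene, at the 32.4 and 9.86 percentiles. The last of them, from 202018951 to 202019120, met only the edge of the control peak from 202019111 to 202019330. The 1 KO1 peak (202023111 to 202023260, 16.9 percentile) began at the same base as the farthest control peak, which was 430 bp wide and ranked at the 75.6 percentile. KO1 and KO2 held no peak in common at ELF3.

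The 10 control peaks at ELF3 formed 3 groups. Of the 5 near the start, the strongest covered it (202010401 to 202010670) and ranked at the 79.1 percentile. The other 4 lay 546, 746, 2116 and 2666 bp before the gene, within the annotated antisense gene ELF3-AS1, at the 41.1, 48.7, 68.9 and 7.79 percentiles. A further 3 lay 637, 1087 and 1927 bp past the end of the gene, and the last 2 lay 5647 and 5927 bp past it, with no gene annotated there. The gene body between start and end held no BRG1 peak beyond the one at the start.

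The lowest total signal that entered a list was 6228 in BRG1 KO1 and 5182 in KO2, against 4164 in control. Of the 10 ELF3 control peaks, 4 lay above the KO1 value, of which 1 had a KO1 peak, and 8 lay above the KO2 value, of which 2 had a KO2 peak. Over all control peaks outside IgG, 17.0% of those above the KO1 value and 22.2% of those above the KO2 value had a KO peak. This comparison was added after the values were seen and holds only if signal is on a common scale, which the sources used here do not state. The smallest signal step was 11.53 in KO1 and 9.09 in KO2, against 4.38 in control. In such steps summed over bases, the lowest total was 540 in KO1 and 570 in KO2, against 950 in control. The order thus turned round, and every control peak then lay above both KO values. Read depth is unknown, and its part in these counts was not tested. In the equal-length lists ELF3 kept 1 peak in KO1, 2 in KO2 and 4 in control.

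The genes most like ELF3 over the 6 antibody lists, by summed difference in peak number among 8997 genes with windows of similar length, were ZFP36L1, CLDN6 and CLDN9, with 5 genes at or under the difference of the last. ZFP36L1, which encodes an RNA-binding protein of mRNA decay, held 1, 3 and 9 BRG1 peaks in KO1, KO2 and control, and its counts differed from ELF3 by 2 in sum. CLDN6 and CLDN9, neighbouring genes for tight junction claudins whose windows overlap, held 0, 2 and 10 each and differed by 3.

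**Figure D2:**
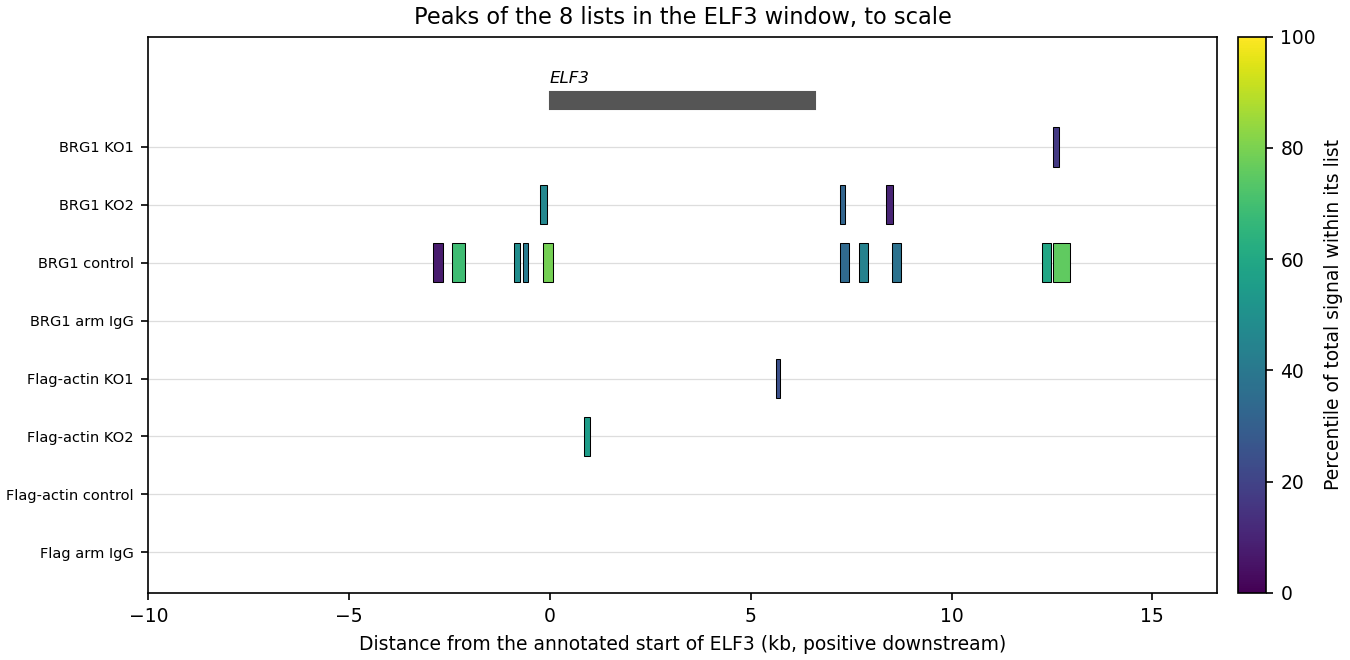
Peaks of the 8 lists in the ELF3 window, drawn to scale by distance from the annotated start (horizontal axis, kb), with 1 line per library and the gene as the grey bar. Colour gives the percentile of total signal within the list. The 10 BRG1 control peaks lie over and before the start, just past the end and from 12244 bp onward. The BRG1 peaks of KO1 and KO2 overlap them, 1 KO2 peak only at its edge. The Flag-actin peaks of KO1 and KO2 lie inside the gene, apart from the BRG1 control peaks.

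KLF5 (gene ID 688, chromosome 13 from 73054976 to 73077538) was the 1 gene of the 8 where a KO list held more BRG1 peaks than control. Its window held 1 BRG1 peak in KO1, 3 in KO2 and 2 in control, and 0 in IgG. In equal-length lists it held 1 in KO1, 3 in KO2 and 0 in control, so both KO lists then passed control. At the second annotated start, a KO2 peak (73058771 to 73059040, 51.5 percentile) overlapped the control peak (73058841 to 73059120, 29.0 percentile), and KO1 had none. By maximum signal the peaks at this start stood at the 6.43 percentile in KO2 and 10.9 in control, each within its own list. A different place, inside the gene and downstream of its first start, held peaks in both KO lists and none in control. It ran from 73056231 to 73056330 in KO1, at the 6.86 percentile, and from 73056131 to 73056330 in KO2, at the 62.2 percentile. Ranked by maximum signal, these peaks stood at the 14.5 percentile in KO1 and 29.1 in KO2. The remaining KO2 peak lay 4022 bp past the end of the gene and the remaining control peak 756 bp after the second start.

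CDX2 (gene ID 1045, chromosome 13 from 27960918 to 27969315) held 0 BRG1 peaks in KO1, 0 in KO2 and 1 in control. The control peak, 220 bp wide over the start (27969241 to 27969460), ranked at the 7.79 percentile, with a maximum of 9 signal steps. CDX2 was the 1 gene of the 8 with a BRG1 peak in control and in neither KO, against 17.3% of all genes. On the deposited scale its control peak, at a total signal of 4295, was below the lowest total signal of both KO lists. In signal steps summed over bases the order turned round. The lowest total was then 540 in KO1 and 570 in KO2, against 950 in control, so the control peak lay above both KO values. Whether the deposited scale is the same in the 3 libraries is not given.

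GATA6 (gene ID 2627, chromosome 18 from 22169589 to 22202528) showed a similar arrangement. It held 0 BRG1 peaks in KO1, 1 in KO2 and 2 in control, with 1 in IgG. The control peak over its start was 360 bp wide (22169411 to 22169770) and ranked at the 14.4 percentile with a maximum of 7 steps, and no KO list held a peak there. The KO2 peak and the other control peak were the same 30 bp, 22201241 to 22201270, which the IgG list of each arm also held. Leaving out IgG sites, GATA6 joined CDX2 and HNF4A as genes with BRG1 in control and in neither KO, 3 of 8 against 26.2% of all genes. The start-site peaks of CDX2 and GATA6 were both low in the control list, and HNF4A had none over a start.

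HNF4A (gene ID 3172, chromosome 20 from 44355699 to 44434596), which is read from alternative promoters, held 1 BRG1 peak in KO1, 1 in KO2 and 4 in control, with 1 in IgG. The strongest peak at any of the 8 genes lay here, from 44371501 to 44371550, inside the gene and within its antisense gene HNF4A-AS1. All 8 lists held it, at the 93.9, 97.8 and 99.7 percentiles for BRG1 in KO1, KO2 and control and the 99.0 percentile in the IgG library of that arm. For Flag-actin it stood at 98.6, 99.4 and 99.5, and at 99.1 in the Flag arm IgG library. IgG thus recovered this site at a rank like that of the antibodies. The other 3 control peaks lay 9292 and 10302 bp after the upstream start and 5992 bp after the second, at the 45.0, 29.7 and 41.1 percentiles, and none had a KO peak.

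ATOH1 (gene ID 474, chromosome 4 from 93828753 to 93830964) held 1 BRG1 peak in each of KO1, KO2 and control and 2 in IgG. The shared peak, 30 bp wide and 1602 bp before the gene (93827121 to 93827150), was in both IgG lists, so no BRG1 peak was left at ATOH1 outside IgG. KLF4 (gene ID 9314, chromosome 9 from 107484852 to 107489769) had no peak in any of the 8 lists, and the nearest in each list was an IgG site 40.6 kb from the gene. CDX1 (gene ID 1044, chromosome 5 from 150166778 to 150184558) had no BRG1 peak in KO1, KO2 or control. KLF4 and CDX1 were thus 2 of 8 without any BRG1 peak, a state shared by 22.4% of all genes.

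**Figure D3:**
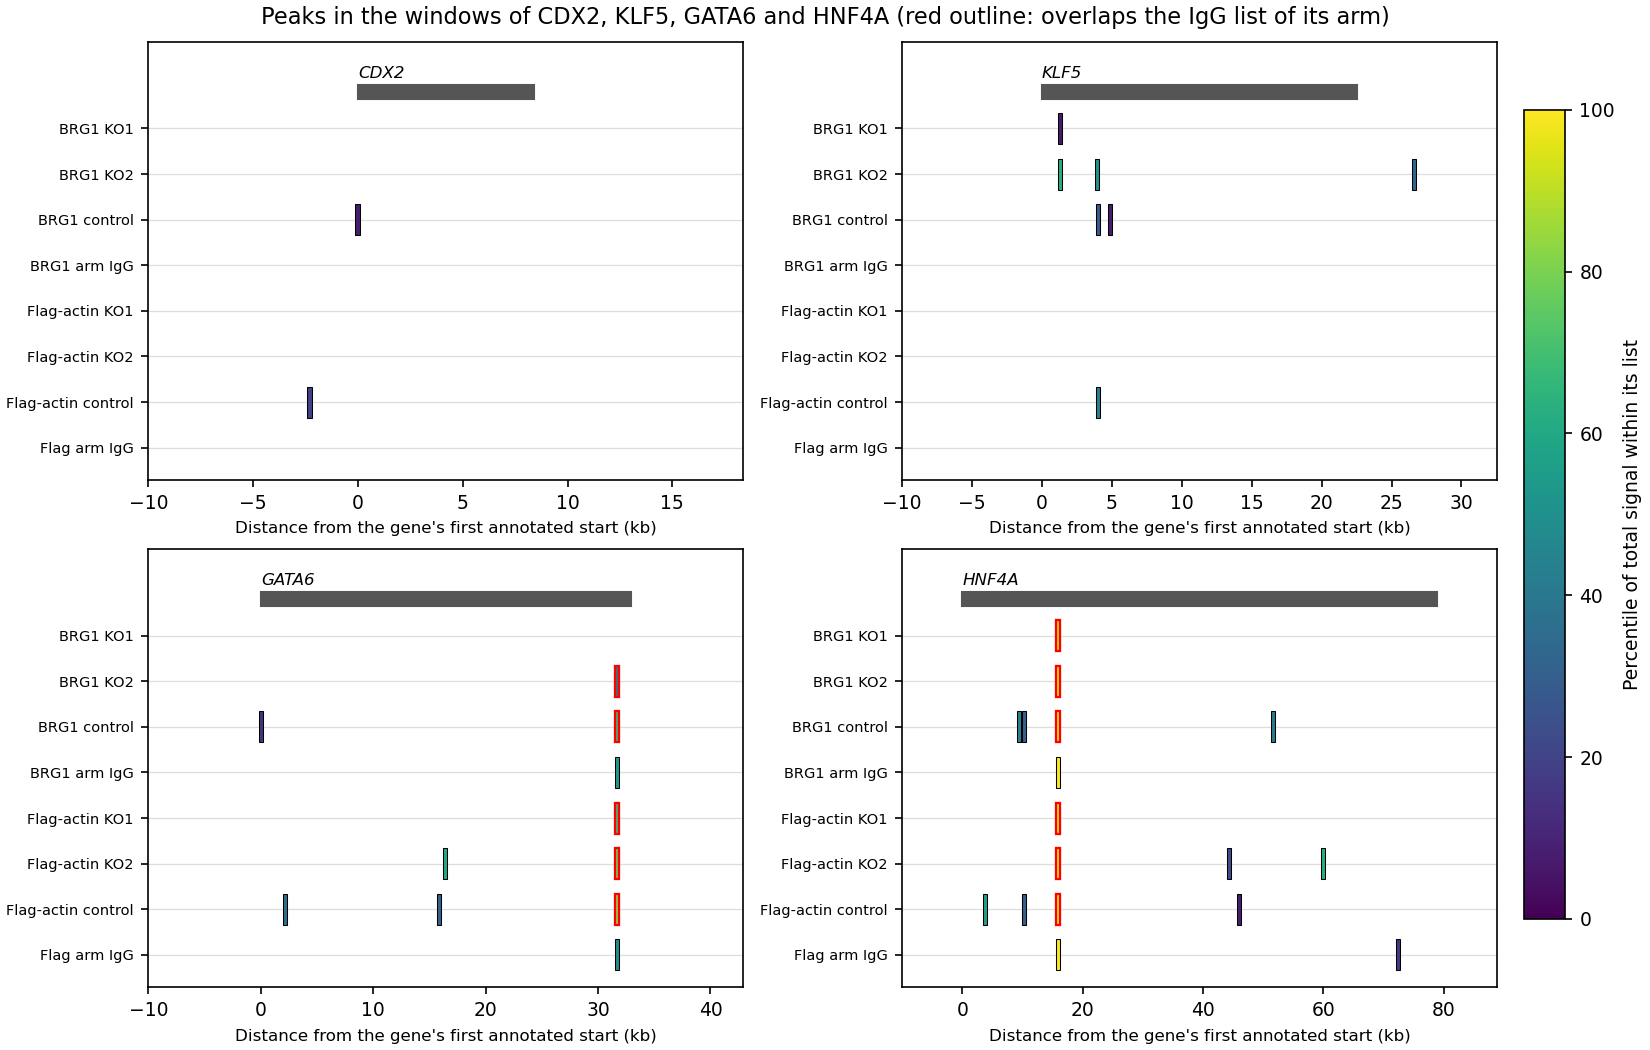
Peaks of the 8 lists at CDX2, KLF5, GATA6 and HNF4A by distance from the first annotated start in the direction of the gene (horizontal axis, kb), with 1 line per library; narrow peaks are widened so that they can be seen. Colour gives the percentile within the list and a red outline marks overlap with the IgG list of that antibody. The red marks at 31652 bp in GATA6 and 15802 bp in HNF4A recur across lists, while the start-site BRG1 peaks of CDX2 and GATA6 appear in control alone.

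Most peaks outside IgG were wider than those that overlapped it. At the 8 genes the IgG-overlapping BRG1 peaks were 30 to 50 bp wide in KO1, KO2 and control alike. Those outside IgG spanned 30 to 430 bp in control and had a median width of 125 bp in KO1, 175 bp in KO2 and 220 bp in control. Of the 17 control peaks outside IgG, 1 was overlapped by a KO1 peak and 4 by a KO2 peak, 5 by either and 0 by both. Over the whole control list outside IgG, 17.5% were overlapped by either (95% exact binomial interval 17.1 to 17.9, counting error only).

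Flag-actin peaks lay within 10 kb of 5 of the 8 genes in KO1, 5 in KO2 and 5 in control, against 49.6%, 59.0% and 60.9% of all genes and 40.9% in the Flag arm IgG library, which had a peak at 3 of the 8. Outside IgG the numbers were 2 in KO1, 4 in KO2 and 4 in control, against 32.4%, 45.6% and 48.3%. The 8 windows together held 5 peaks in KO1 and 9 in KO2 (mean 7 ± 2.83, SD, n = 2), against 10 in control. KO over control was 0.5 for KO1 and 0.9 for KO2. The lengths of the lists stood at 0.7 and 0.923, and all gene windows at 0.549 and 0.768. In the upper part of each list by signal there were 3 in KO1 and 6 in KO2, against 4 in control, and in equal-length lists 5 in KO1 and 8 in KO2, against 7 in control. In both cases the order turned round for KO2 and not for KO1.

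The number of genes with Flag-actin was the same in the 3 lists, but the genes were not. CDX2 and KLF5 had a peak in control and in neither KO, 2 of 8 against 9.07% of all genes. CDX1 and ELF3 had more peaks in both KO lists than in control, 2 of 8 against 8.29%. Within 50 kb the direction at CDX1 turned round, with 2 peaks in KO1 and 4 in KO2, against 7 in control. Fewer in both were found at CDX2, HNF4A, KLF5 and GATA6, 4 of 8 against 28.1%. Each of these cases rests on 0 to 4 peaks per list.

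At CDX1 the Flag-actin lists held 1 peak in KO1, 2 in KO2 and 0 in control. The KO1 peak lay 8717 bp outside the gene and the KO2 peaks inside it, from 150172611 to 150172770 and from 150174161 to 150174240, so KO1 and KO2 had no place in common. At ELF3 there was 1 peak in KO1 (202016221 to 202016320, 24.4 percentile), 1 in KO2 (202011441 to 202011590, 55.1 percentile) and 0 in control. Both were inside the gene, at different places, and neither met a BRG1 peak of any list.

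At KLF5 the Flag-actin control peak (73058811 to 73059140, 43.0 percentile) lay across the second annotated start and overlapped the BRG1 peaks of control and KO2 there. It was the 1 Flag-actin peak over a listed promoter of these genes, in control or KO. The CDX2 control peak (27971531 to 27971740) lay 2215 bp before the gene at the 19.0 percentile. At HNF4A the 2 KO2 peaks outside IgG ran from 44399931 to 44400060 and from 44415481 to 44415640. The 3 control peaks outside IgG lay elsewhere, at the 56.4, 29.9 and 8.16 percentiles, the last 392 bp after the second start. GATA6 held 1 such peak in KO2 and 2 in control, none of them shared.

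Of the 7 Flag-actin control peaks outside IgG at the 8 genes, 0 were overlapped by a KO1 peak and 0 by a KO2 peak. Over the whole list the share overlapped by either was 8.24% (interval 7.91 to 8.58). The 3 peaks that the Flag-actin lists of KO1, KO2 and control did share were the IgG sites at HNF4A, GATA6 and ATOH1.

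BRG1 and Flag-actin met outside IgG at 2 of the 17 BRG1 control peaks. One was the KLF5 start. The other was a 30 bp peak in HNF4A, from 44366001 to 44366030, present in the BRG1 control and Flag-actin control lists and in no other. That peak was as narrow as the IgG-overlapping BRG1 peaks at GATA6 and ATOH1, with maxima of 38 steps for BRG1 and 46 for Flag-actin. Whether it was background was not tested. In KO1 and KO2 no BRG1 peak outside IgG met a Flag-actin peak of the same cells, with 2 and 6 such BRG1 peaks. Over the whole lists 4.08% of BRG1 peaks outside IgG met a Flag-actin peak in KO1, 5.41% in KO2 and 5.09% in control, so 0 of 2 and 0 of 6 tell nothing about these genes.

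**Figure D4:**
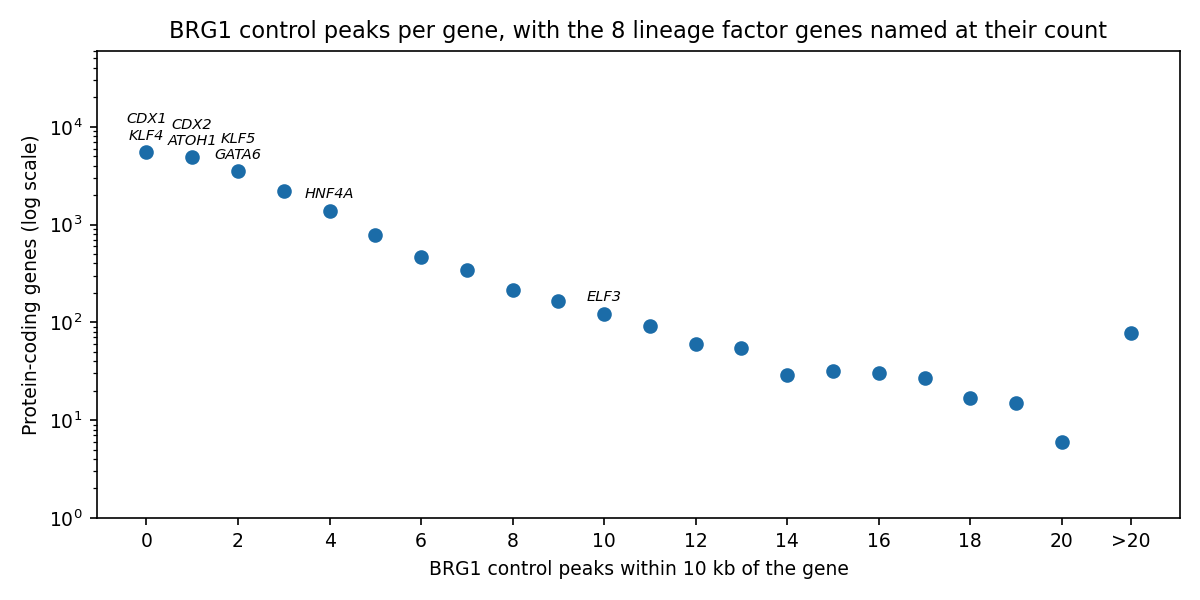
Number of protein-coding genes (vertical axis, log scale) with each number of BRG1 control peaks within 10 kb (horizontal axis), with the 8 genes named at their own count. The 8 genes spread over 0, 1, 2, 4 and 10 peaks, and 2.8% of all genes reach the 10 of ELF3.

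The wider network of gut transcription factors was read in the same way, from a list of known gut factors. Of 42 other such genes, 13 had a BRG1 peak in KO1, 24 in KO2 and 28 in control, 31.0%, 57.1% and 66.7%, against 44.3%, 55.5% and 72.4% of all genes. Of these 42, 21 had fewer BRG1 peaks in both KO lists, 0 had more in both, and 7 had a peak in control and in neither KO. The shares over all genes were 48.3%, 1.91% and 17.3%. The highest BRG1 control peaks outside IgG were at TCF7L2, the Wnt effector, at the 93.6 percentile, then at GRHL2, SOX9, NR5A2 and ELF1. TCF7L2, a long gene, held 11 BRG1 peaks in KO1, 18 in KO2 and 43 in control, and both KO lists overlapped its top peak. SOX9, a crypt factor and Wnt target, held 0, 0 and 5. GRHL2, an epithelial factor, held 6 in KO1, 12 in KO2 and 11 in control, and NR5A2, a nuclear receptor of crypt cells, held 0, 3 and 3. ELF1, an ETS factor, held 2, 3 and 5.

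For Flag-actin, 26 of the 42 genes had a peak in KO1, 30 in KO2 and 31 in control, which is 61.9%, 71.4% and 73.8%, against 49.6%, 59.0% and 60.9% of all genes. Of the 42, 19 had fewer peaks in both KO lists, against 28.1% of all genes, and 2 had more in both, against 8.29%. High control peaks outside IgG were at TCF7L2, the stem cell factor ASCL2, the secretory cell factor BHLHA15 and the epithelial factor OVOL1, between the 64.4 and 72.1 percentiles. None of those 4 peaks was overlapped by a peak of KO1 or KO2.

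The 34 genes for products of mature intestinal cells had BRG1 peaks at 18 in KO1, 19 in KO2 and 24 in control. These were 52.9%, 55.9% and 70.6%, against 44.3%, 55.5% and 72.4% of all genes. The 30 factors of other lineages had them at 11, 14 and 15, which is 36.7%, 46.7% and 50%, with a median of 0.5 control peaks against 1 over all genes. Flag-actin peaks lay at 11 of these 30 in KO1, 14 in KO2 and 24 in control, which is 36.7%, 46.7% and 80.0%, against 49.6%, 59.0% and 60.9% of all genes. Peaks do not measure expression, so the labelled cell type was looked at only through peak counts at marker genes. The 8 epithelial and colon markers, 3 of which are also in the list of products, held 8 BRG1 peaks in KO1, 16 in KO2 and 46 in control, with 7 in IgG. The 16 fibroblast and immune markers held 14, 18 and 22, with 10 in IgG. A Flag-actin control peak lay at 87.5% of the epithelial and colon markers and 62.5% of the fibroblast and immune markers, against 60.9% of all genes. A BRG1 control peak lay at 75.0% of the epithelial markers and 62.5% of the fibroblast and immune markers, against 72.4% of all genes, so these counts do not check the cell type.

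**Figure D5:**
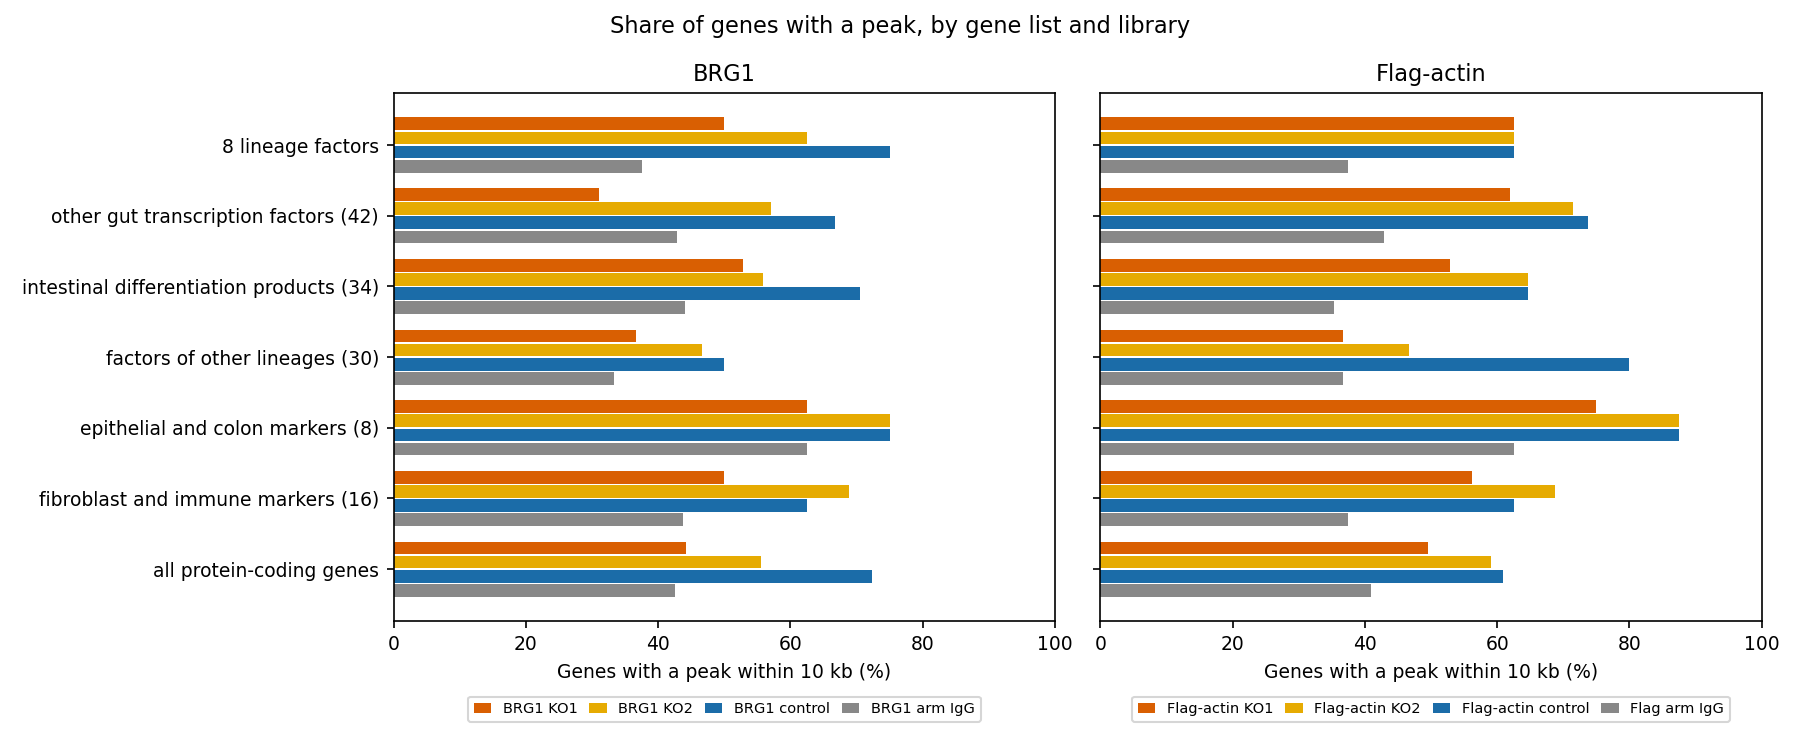
Share of genes with at least 1 peak within 10 kb (horizontal axis, %) for the 8 lineage factors, the 5 other gene lists and all protein-coding genes, in KO1, KO2, control and IgG, for BRG1 on the left and Flag-actin on the right; bars are single libraries. The 8 lineage factors stand at 50%, 62.5% and 75.0% for BRG1 in KO1, KO2 and control, close to all genes. In the Flag-actin control the factors of other lineages stand at 80.0% and the 8 epithelial and colon markers at 87.5%.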

How the data were processed

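Peak lists of 8 CUT&RUN libraries of HCT-116 cells were used. Per the submitters' processing notes the build was hg38, and bedtools 2.30.0, BWA, deepTools, FastQC 0.12.0, MACS2, SAMtools, SEACR and Trim Galore 0.4.5 were used, in an order and with settings not given in the sources used here. The deposited lists have the 6-column SEACR layout, called per library, with a summed signal and a highest signal for every peak, as the authors' peak caller wrote them. How the deposited signal was scaled between libraries is not given, and read depth is unknown. Peak number is a property of a list and is no measure of occupancy. Intervals cover counting error only.

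Only the autosomes, X and Y were used. Overlaps of at least 1 bp, percentiles by total signal and counts were obtained with scripts (Python 3.11.15, numpy 2.4.6, pandas 2.3.3 and scipy 1.17.1). The overlap search was tested on simulated data, with 0 disagreements in 5000 queries. Maximum signals below 200 steps were whole multiples of a step in 100% of peaks, within 0.05 steps. Gene spans and promoters came from RefSeq (GRCh38.p14), which shares its coordinates with hg38. All 138 list entries matched a symbol. Named gut factors were the 5 with the highest control peak outside IgG for each antibody, of which 1 is not reported here, and the 3 genes most like ELF3 were those with the smallest summed difference in counts. The 8 genes, the lists and the motifs were chosen with earlier results of these data known. No test between KO and control was made. Alternatives were other windows, removal of IgG sites, equal-length lists, the upper part of each list by signal, other overlap rules, the maximum signal as rank, and leaving out KO1 or KO2.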

Additional observations from a re-analysis of the deposited data

Results flagged for a closer look

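ELF3 was the 1 gene of the 8 at which the antibodies moved in opposite directions in every KO library. BRG1 peaks there numbered 1 in KO1 and 3 in KO2, against 10 in control, a KO mean minus control of -8. Flag-actin peaks numbered 1 in KO1 and 1 in KO2, against 0 in control, a KO mean minus control of 1. The difference was not tested, and the Flag-actin side rests on 1 peak per KO list at different places. Among the 562 genes with 10 or more BRG1 control peaks, ELF3 included, 94.7% held fewer in both KO lists. That set was chosen by its control count, which itself favours fewer peaks in KO. The BRG1 KO lists were also the shorter ones of their arm, at 23784 and 32038 peaks against 53270 in control. In equal-length lists ELF3 held 1 BRG1 peak in KO1 and 2 in KO2, against 4 in control, a smaller difference. The part of list length in the BRG1 difference was not tested.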

How the results depend on the processing

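Counts over 8 genes are small and moved with most settings. No paired analysis was possible because each antibody had 1 control library. BRG1 peaks over the 8 genes, a mean of 6.5 in KO and 20 in control with 10 kb windows, were 3 and 10 over the gene spans alone, 18.5 and 37 with 50 kb windows, 6 and 7 with equal-length lists (KO1 4, KO2 8), and 2.5 and 7 in the upper part of each list. Without IgG sites, of the same arm or of either arm, the KO mean was 4 and the control count 17. The KO mean stayed below control under each of these settings, but KO2 passed control with equal-length lists. Leaving out a KO library gave 4 to 9. Genes with BRG1 in control and in neither KO, 1 with 10 kb windows, numbered 2 over gene spans, 0 with 50 kb windows, 3 without IgG sites, 0 with equal-length lists, 2 in the upper part of the lists, and 1 to 2 when a KO library was left out.

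Flag-actin peaks, a mean of 7 in KO and 10 in control, were 18.5 and 22 with 50 kb windows, 6.5 and 7 with equal-length lists (KO1 5, KO2 8), and 4.5 and 4 in the upper part of each list (KO1 3, KO2 6), where KO2 and not KO1 passed control. Without IgG sites they were 4 and 7. Genes with Flag-actin in control and in neither KO, 2 with 10 kb windows, numbered 1 over gene spans, 0 with 50 kb windows, 1 with equal-length lists and 0 in the upper part. With peaks ranked by maximum signal, 29 of 30 top percentiles of both antibodies together changed. The change ran from small, as from 99.7 to 99.5 for BRG1 control at HNF4A, to large, as from 62.2 to 29.1 for BRG1 KO2 at KLF5. Depth, which the files do not give, limits what an absent peak can show.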

Other observations

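The surroundings differed between these genes. Within 50 kb, ELF3 had 3 BRG1 peaks in KO1, 7 in KO2 and 17 in control, with 0 in IgG. KLF5 had 4 in KO1, 5 in KO2 and 5 in control, with 1 in IgG, so its wider region held about as many BRG1 peaks in KO as in control. For CDX2 the nearest BRG1 peak lay 52.3 kb from the gene in KO1 and 41.0 kb in KO2, where control had it over the start. The KO1 peak was an IgG site and the KO2 peak was not. The nearest BRG1 peak to CDX1 lay 13.9 to 14.0 kb from the gene in KO1, KO2 and control, and was an IgG site in each.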
